A study of Mus musculus with 8 samples.

Results

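The choroid plexus is the epithelial tissue that lies in the brain ventricles and makes cerebrospinal fluid, and a dissected hippocampus can carry some of it along. Here 10 genes known for high expression in this epithelium, Ttr, Kl, Folr1, Calml4, Clic6, Kcnj13, Otx2, Slc4a5, Aqp1 and Tmem72, were followed library by library through a table of 24498 genes. They were chosen by name as choroid plexus genes, with their values in these same libraries already known from an earlier comparison of the vectors after training. Their levels and differences are therefore a description, with no test. The libraries were made from dorsal hippocampus of C57BL/6J males, 10 to 12 weeks old, and the question addressed is how evenly choroid plexus transcripts are spread over vector and training groups.

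All mice had received a type AAV2/9 viral vector in the dorsal hippocampus, so the controls carried virus and EGFP as well. The knockdown vector held a hairpin RNA against Acss2, the acetyl-CoA synthetase of the nucleus and cytosol, under a U6 promoter plus EGFP under a CMV promoter. The control vector held CMV-driven EGFP alone. Both were given 3 weeks before the behavioural test. Trained mice explored 3 objects in 3 trials of 6 min and were killed 30 min later, while untrained mice stayed in the home cage. There were 4 groups of 2 libraries: knockdown trained (KD.249 and KD.251), knockdown untrained (KD.253 and KD.255), control trained (eGFP.250 and eGFP.266) and control untrained (eGFP.254 and eGFP.268), each named by the end of its column name. The labels do not say how many mice a library holds. U6 and CMV are active in many cell types, so the vectors are not restricted to neurons by their promoters.

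The choroid plexus epithelium moves ions, water, hormones and vitamins from blood to cerebrospinal fluid. Its cells are joined by tight junctions and carry many microvilli on the ventricular side. The lateral ventricle, with its choroid plexus, runs directly along the hippocampus.

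Libraries held between 6537749 and 9863728 reads in genes, except KD.251 with 1484318 and KD.255 with 272456. Values are read counts divided by a size factor of the library, called normalized read counts. Where no read was seen, up to 3 reads remain possible, which were worth 46.7 normalized read counts in KD.255 and 8.65 in KD.251. In the other 6 libraries this floor was at most 1.98. Of the 10 genes, 6 had no read in KD.255 and 1, Aqp1, had none in KD.251, and 4 had a read in every library. Acss2 stood at 25.6 and 57.7 normalized read counts in trained knockdown libraries and at 25.0 and 15.6 in untrained ones, against 87.4 and 67.5 in trained control and 58.2 and 82.0 in untrained control libraries. The value of 15.6 in KD.255 is 1 read, under that library's floor, and the 57.7 of KD.251 is level with the 58.2 of eGFP.254. Hippocampal neuron markers, the check of the tissue, summed to between 4729 and 7125 normalized read counts per library.

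Promoter windows of 3 of the genes are shown because these windows held a searched motif. How the motifs relate to the levels of the genes was not tested. RefSeq (GRCm38.p6) gave windows of 300 bases, 250 before and 50 after a transcription start, for 7 of the 10 genes, with 10 windows in all because Otx2 had several starts. Each is printed from 5′ to 3′ on the strand of its gene, with the motif in capitals. The Otx2 window (chr14:48665060-48665359, minus strand) held the letters TAATCC, the core of bicoid-type homeodomain sites such as those OTX2 binds, on the opposite strand to the gene, so that they read GGATTA:
Otx2 promoter: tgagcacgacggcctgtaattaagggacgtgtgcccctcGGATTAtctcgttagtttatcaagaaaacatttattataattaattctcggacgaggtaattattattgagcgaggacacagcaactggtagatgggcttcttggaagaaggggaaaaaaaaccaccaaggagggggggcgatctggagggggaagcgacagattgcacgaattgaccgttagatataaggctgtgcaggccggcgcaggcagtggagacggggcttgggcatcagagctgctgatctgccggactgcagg
The Kcnj13 window (chr1:87394680-87394979, minus strand) held a TATA box, the letters TATAAA, beginning 29 bases before the start. The Slc4a5 window (chr6:83237125-83237424, plus strand) held the same letters on the opposite strand, beginning 127 bases before the start:
Kcnj13 promoter: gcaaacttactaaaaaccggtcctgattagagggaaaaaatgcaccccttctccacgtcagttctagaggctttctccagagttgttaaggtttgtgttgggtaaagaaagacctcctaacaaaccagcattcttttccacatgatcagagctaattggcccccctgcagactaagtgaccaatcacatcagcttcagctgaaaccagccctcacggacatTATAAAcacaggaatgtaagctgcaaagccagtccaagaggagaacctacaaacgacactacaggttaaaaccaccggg
Slc4a5 promoter: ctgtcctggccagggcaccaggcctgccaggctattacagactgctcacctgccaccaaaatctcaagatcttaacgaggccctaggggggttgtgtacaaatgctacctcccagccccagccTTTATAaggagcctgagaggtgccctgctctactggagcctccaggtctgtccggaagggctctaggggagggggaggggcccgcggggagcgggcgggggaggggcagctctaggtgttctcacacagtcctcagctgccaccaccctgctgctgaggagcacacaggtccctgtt
TAATCC on either strand was found in 1 of the 10 windows, against 7.06% of 32851 promoters of the same length. TATAAA was found in 3 of the 10, the third being another Otx2 window, against 13.6% of promoters. The forkhead letters GTAAACA, searched because a forkhead factor marks ciliated ependymal cells, were in 0 of the 10 windows and in 3.65% of promoters. TAATCC and TATAAA do not overlap one another in the windows shown. These are matches of letters, not measured sites, and no match says only that the letters are not in the window.

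Ttr, whose product transthyretin carries thyroxine and retinol-binding protein in cerebrospinal fluid, had the highest level per kilobase of the 10. Its normalized read count was 173 and 1768 in trained knockdown libraries and 341 and 482 in untrained knockdown libraries, against 57479 and 620 in trained control and 15080 and 133 in untrained control libraries. The library eGFP.250 (control, trained) and the library eGFP.254 (control, untrained) stood far above the other 6, while eGFP.266, with 620, lay inside the range of the knockdown libraries and eGFP.268, with 133, below it. In reads, Ttr had 111162 in eGFP.250 and 25929 in eGFP.254. The other 6 libraries had between 31 and 1296, so the gene was counted well above the floor in each of them. Ttr lies on chromosome 18, from 20665280 to 20674321 of GRCm38, plus strand.

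Folr1, the folate receptor that carries folate across the epithelium, had 6.65 and 17.3 normalized read counts in trained knockdown libraries and 1.32 and 0 in untrained knockdown libraries, against 157 and 3.35 in trained control and 37.2 and 2.22 in untrained control libraries. Its highest counted value outside eGFP.250 and eGFP.254 was in KD.251, a knockdown library, on 6 reads, and KD.255, with no read, allows up to 46.7. Kl encodes klotho, the co-receptor of fibroblast growth factor 23, which is also made in hippocampal neurons. It had 72.2 and 80.8 in trained knockdown and 81.1 and 109 in untrained knockdown libraries, against 973 and 69.4 in trained control and 262 and 85.6 in untrained control libraries. Outside the same pair of libraries Kl kept to between 69.4 and 109, the narrowest relative spread of the 10 genes. Folr1 lies on chromosome 7 from 101858331 to 101870788 (minus strand) and Kl on chromosome 5 from 150952607 to 150993817 (plus strand).

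The ion and water transporters of the apical membrane followed. Kcnj13, the inward rectifier potassium channel Kir7.1, had 2.56 and 8.65 normalized read counts in trained knockdown and 5.27 and 15.6 in untrained knockdown libraries, against 380 and 4.31 in trained control and 50.02 and 1.77 in untrained control libraries. Slc4a5, a sodium bicarbonate cotransporter, had 1.54 and 2.88 in trained knockdown and 4.61 and 0 in untrained knockdown libraries, against 330 and 3.83 in trained control and 89.0 and 1.77 in untrained control libraries. Aqp1, the water channel aquaporin-1, was nearest to absence outside the high pair: it had 0.512 and 0 in trained knockdown and 0.659 and 0 in untrained knockdown libraries, against 96.2 and 1.44 in trained control and 18.6 and 0.444 in untrained control libraries. Clic6, of the intracellular chloride channel family, had 6.65 and 14.4 in trained knockdown and 7.91 and 31.1 in untrained knockdown libraries, against 404 and 7.65 in trained control and 111 and 3.99 in untrained control libraries. The value of 31.1 in KD.255 lies under that library's floor of 46.7. Kcnj13 lies on chromosome 1 from 87386363 to 87394729 (minus strand) and Clic6 on chromosome 16 from 92485736 to 92541243 (plus strand). Slc4a5 and Aqp1 lie on chromosome 6, from 83219828 to 83304945 and from 55336432 to 55348555, both on the plus strand.

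The remaining genes are a transcription factor, a calmodulin-like protein and a transmembrane protein. Otx2, the homeodomain factor needed for the development of the choroid plexus, had 1.54 and 17.3 normalized read counts in trained knockdown and 2.64 and 0 in untrained knockdown libraries, against 197 and 2.39 in trained control and 22.1 and 3.55 in untrained control libraries. Calml4 had 8.19 and 2.88 in trained knockdown and 5.27 and 0 in untrained knockdown libraries, against 127 and 4.31 in trained control and 27.3 and 0.887 in untrained control libraries. Tmem72, for which no role is given here, had 1.54 and 5.77 in trained knockdown and 1.98 and 0 in untrained knockdown libraries, against 256 and 4.78 in trained control and 63.4 and 0.444 in untrained control libraries. In each of the 3, eGFP.250 was highest. The next counted value was that of eGFP.254, which for Otx2 and Calml4 lies under the floor of KD.255. Otx2 lies on chromosome 14 from 48657677 to 48673819 (minus strand), Calml4 on chromosome 9 from 62858080 to 62875921 (plus strand) and Tmem72 on chromosome 6 from 116679063 to 116716913 (minus strand).

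**Figure D1:**
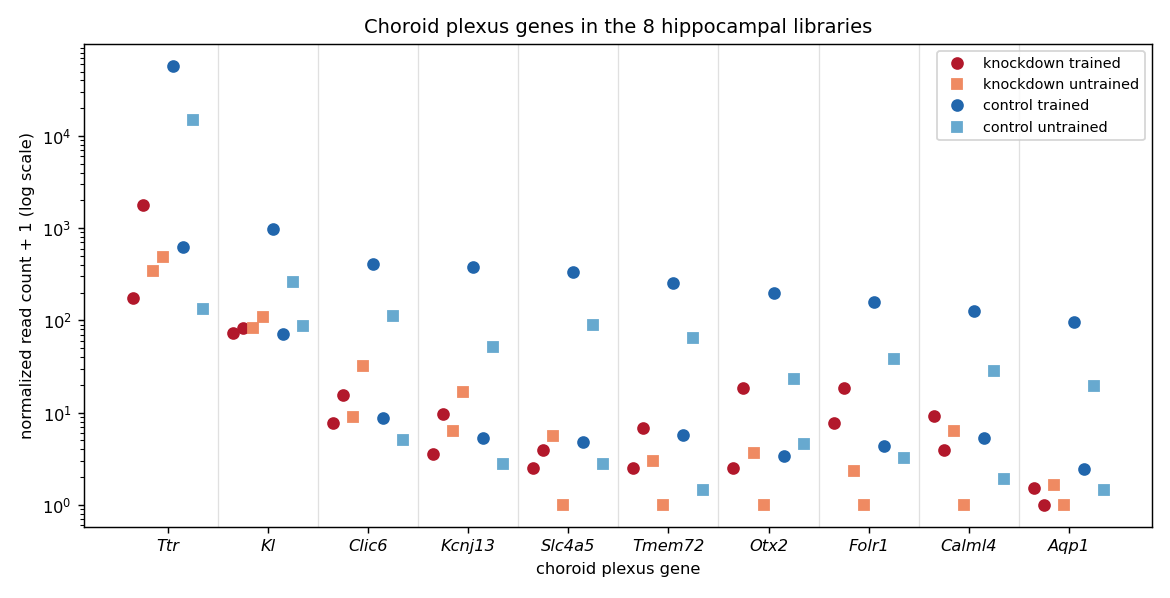
Normalized read count + 1 (log axis) of the 10 choroid plexus genes in the 8 libraries, with knockdown libraries left of control libraries within each gene and every point 1 library. In each gene 1 trained control and 1 untrained control library (57479 and 15080 for Ttr) are plotted above the other 6, where a value of 0 in KD.255 allows up to 46.7.

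As counted, eGFP.250 was highest and eGFP.254 second in 10 of 10 genes, while 2.57% of the 12681 tested genes (326 genes) had this order. Nothing is read from these shares, since the genes were chosen with the values known and 7 of the 10 reach the mean of 10 normalized read counts required for testing only through these libraries. The second place is undecided for 4 of them, Folr1, Calml4, Otx2 and Aqp1, which had no read in KD.255 and lay in eGFP.254 under the floor of KD.255. For Kcnj13 and Clic6 it was set against 1 and 2 reads in KD.255. In sum, the 10 genes came to 274 and 1918 normalized read counts in trained knockdown and 451 and 638 in untrained knockdown libraries, against 60399 and 721 in trained control and 15760 and 234 in untrained control libraries. They took 1.41% of all gene reads in eGFP.250 and 0.359% in eGFP.254, and between 0.00534% and 0.0448% in the other 6. Without Ttr the sums were 101 and 150 in trained knockdown and 111 and 156 in untrained knockdown libraries, against 2920 and 101 in trained control and 680 and 101 in untrained control libraries. The high pair thus stood apart with or without Ttr, while the difference between KD.251 and KD.249 rested mostly on Ttr.

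Per kilobase of merged exons, the median normalized read count over the 8 libraries was 465 for Ttr, 8.93 for Kl, 5.48 for Kcnj13, 2.85 for Clic6, 2.18 for Folr1 and 1.31 for Calml4. It was 0.73 for Otx2, 0.58 for Slc4a5, 0.22 for Aqp1 and 0.20 for Tmem72. Neighbours in this order below Ttr overlapped widely from library to library. In eGFP.250 alone the order was another: Kcnj13 came second at 299 per kilobase, above Kl at 104 and Clic6 at 103. Kcnj13 shares 49.1% of its exon bases (623 of 1270) with Gigyf2 on the opposite strand, and the strand setting of the counting is not given in the sources used here. Gigyf2 itself lay between 797 and 964 normalized read counts in all 8 libraries. Otx2 shares 154 exon bases with the antisense gene Otx2os1, which had 2.07 in eGFP.250, 0.58 in eGFP.254 and 0 in the other 6.

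Composition was compared between the 2 high libraries through the ratio of eGFP.250 to eGFP.254, with 95% intervals that cover counting error only. It was 3.81 for Ttr (3.76 to 3.86), 3.72 for Kl, 3.66 for Clic6, 3.71 for Slc4a5, 4.05 for Tmem72, 4.21 for Folr1, 4.63 for Calml4 and 5.17 for Aqp1. The intervals of the 7 genes other than Ttr all overlap that of Ttr. Kcnj13 (7.60, 6.07 to 9.61) and Otx2 (8.91, 6.38 to 12.8) were the 2 genes whose intervals lie wholly above it. Over all tested genes the median ratio was 1.01, with the 5th to 95th percentile from 0.579 to 2.00. In 8 genes the intervals of the ratio thus overlapped that of Ttr or were its own, and in 2 they lay above it.

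**Figure D2:**
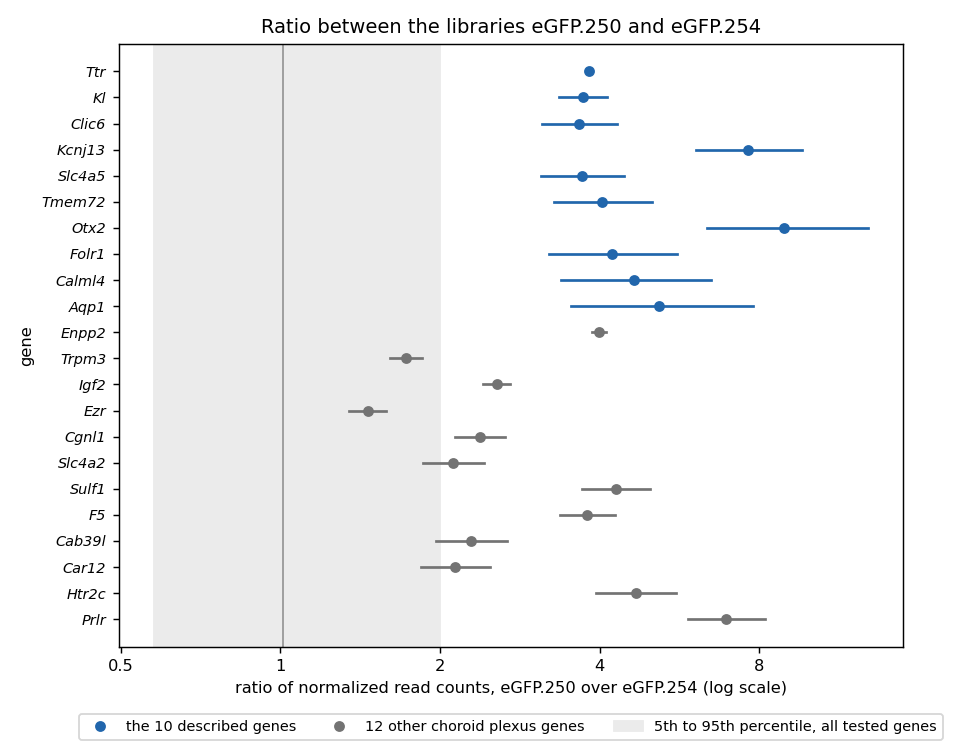
Ratio of normalized read counts in eGFP.250 over eGFP.254 (log axis) for the 10 genes and 12 other choroid plexus genes; bars are 95% counting intervals, the line marks the median of all tested genes (1.01) and the band their 5th to 95th percentile. Kcnj13 and Otx2 lie to the right of Ttr, and Ezr and Trpm3 lie inside the band.

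Set against the other library of its own group, eGFP.250 over eGFP.266 was 92.7 for Ttr, 88.3 for Kcnj13 and 86.2 for Slc4a5, and 14.0 for Kl. The ratio of eGFP.254 over eGFP.268 was 113 for Ttr (101 to 127), 50.2 for Slc4a5 (19.2 to 186), 28.2 for Kcnj13 (10.6 to 106), 6.23 for Otx2 (2.86 to 15.5) and 3.06 for Kl (2.58 to 3.64). For Tmem72 and Aqp1 it was 143 and 42.0, each over 1 read in eGFP.268, with intervals from 25.1 to 5697 and from 7.01 to 1709. Calml4, over 2 reads, had 30.8 (8.07 to 262). Kl had the lowest of both ratios. The share of Kl among the reads of the 9 genes without Ttr was 33.3% in eGFP.250 and 38.5% in eGFP.254. It was between 53.8% and 85.0% in the other 6. Ttr made up 95.2% of the reads of the 10 genes in eGFP.250 and 95.7% in eGFP.254, and 92.2% in KD.251. In the other 5 libraries its share was between 56.9% and 85.9%.

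The pair of high libraries were both control libraries, 1 trained and 1 untrained. The remaining control libraries, eGFP.266 and eGFP.268, carry the highest library numbers, and no knockdown library falls beside them. What those numbers stand for is not given in the labels. For 5 of the 10 genes, the values in eGFP.266 and eGFP.268 both lay inside the range of the 4 knockdown libraries. These 5, Folr1, Calml4, Otx2, Slc4a5 and Tmem72, had no read in KD.255, where up to 46.7 remains possible. The lower end of their range is therefore not counted. For Calml4 and Tmem72, eGFP.268, with 0.887 and 0.444, lay below every knockdown library but KD.255. In bulk tissue, fewer cells of a type and less RNA per cell cannot be told apart, and the amount of choroid plexus tissue in a sample was not measured other than by these transcripts.

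Among 38 further choroid plexus genes in the table, 30 had a mean of at least 10 normalized read counts and were tested, and eGFP.250 was the highest library in 30 of 30, against 12.8% of all tested genes, though 8 of the 30 were tested only because of their levels in eGFP.250 and eGFP.254. In 25 of the 30, eGFP.254 was second. Nothing is read from these shares, since the list was chosen with earlier results of these data known. Without eGFP.250 and eGFP.254, 3 of the 10 genes above (Ttr, Kl and Clic6) would have passed the same limit. Enpp2, which encodes autotaxin, the enzyme that makes lysophosphatidic acid, had 1097 and 1601 in trained knockdown and 861 and 995 in untrained knockdown libraries, against 11910 and 1271 in trained control and 2983 and 480 in untrained control libraries. Igf2, a growth factor that choroid plexus and meninges secrete, had 103 and 141 in trained knockdown and 204 and 233 in untrained knockdown libraries, against 2286 and 216 in trained control and 895 and 173 in untrained control libraries. Prlr, the prolactin receptor, had 27.1 and 66.3 in trained knockdown and 31.6 and 15.6 in untrained knockdown libraries, against 648 and 19.6 in trained control and 93.6 and 26.2 in untrained control libraries. F5, coagulation factor V, reached 751 in eGFP.250 and 198 in eGFP.254 and stayed between 13.3 and 46.2 elsewhere.

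Among the other named genes of this list, Trpm3 and Ezr stood out less in the high pair. Trpm3, a cation channel, had 1243 in eGFP.250 and 721 in eGFP.254 and between 451 and 562 elsewhere. Ezr, the membrane-to-actin linker ezrin, had 828 in eGFP.250 and 567 in eGFP.254 and between 349 and 535 elsewhere. The ratio of eGFP.250 to eGFP.254 was 1.72 for Trpm3 and 1.46 for Ezr, the lowest of the list. Car12 (a carbonic anhydrase), Slc4a2 (an anion exchanger), Cab39l (a kinase scaffold) and Cgnl1 (a junction protein) had ratios between 2.12 and 2.38. Sulf1, a heparan sulfatase, stood at 4.28. These ratios set the high pair against each other and do not show how far it stood above the remaining libraries. Car12 had 311 in eGFP.250 and 145 in eGFP.254, and between 60.3 and 109 elsewhere. Htr2c, a serotonin receptor of choroid plexus and of neurons, had 430 in eGFP.250, while eGFP.268, with 170, and not eGFP.254, with 91.9, was second.

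Markers of the neighbouring tissues were read in the same libraries. Ependymal cell markers, 14 genes of the ciliated ventricle lining, summed to 483 and 317 in trained knockdown and 308 and 171 in untrained knockdown libraries, against 739 and 281 in trained control and 346 and 123 in untrained control libraries. The defining factor Foxj1 had 168 in eGFP.250 and 98.9 in eGFP.254, and 102 in KD.249. In 8 of the 11 tested ependymal genes eGFP.250 was highest, and eGFP.254 was second in 0. Rsph1 and Hydin, of the motile cilium, reached 122 and 72.9 in eGFP.250 and at most 62.2 and 47.1 elsewhere. Meningeal fibroblast markers (12 genes) summed to 166 and 234 in trained knockdown and 265 and 295 in untrained knockdown libraries, against 855 and 270 in trained control and 509 and 508 in untrained control libraries. Of these, eGFP.250 was highest in 5 of 9 tested genes. Dcn, the matrix proteoglycan decorin, had 384 in eGFP.250 and 303 in eGFP.268, and 69.8 in eGFP.254. Bgn and Ogn had 149 and 82.2 in eGFP.250 and 80.8 and 61.6 in eGFP.254. Their means over all libraries were 82.4 and 32.1, so Bgn in eGFP.254 lay near its mean.

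The sums of other lists did not follow those of the choroid plexus genes. Thalamic neuron markers, with Adarb1, Ntng1 and Rora as the highest, summed to between 1897 and 2278 over the 8 libraries. Brain endothelial markers, with Flt1, Slco1a4 and Abcb1a as the highest, summed to between 793 and 1104. By gene, eGFP.250 was highest in 2 of 12 tested thalamic and 0 of 10 tested endothelial genes, against 12.8% of all tested genes. Without eGFP.250 and eGFP.254, 11 of the 12 thalamic genes would have been tested. Of the 7 red blood cell genes, 6, among them Hba-a1 and Hba-a2, were listed at 0 in every library, and Alas2 was at most 9.09. With 6 genes at 0 throughout, this list cannot show how blood was spread over the libraries, and nothing is read from it. Hippocampal neuron markers were lowest in eGFP.250, with a sum of 4729, against 6221 in the other trained control library. The untrained knockdown library KD.255 was nearly as low, at 4806. The highest sum, 7125, was in eGFP.254, the other library with high choroid plexus values. Prox1, of dentate granule cells, had 330 in eGFP.250 and between 575 and 1005 elsewhere. Neurod6 and Neurod2, of pyramidal and other glutamatergic neurons, had 1243 and 818 in eGFP.250, against means of 1482 and 1137 over the 8 libraries. The part of these marker levels in the choroid plexus values was not tested.

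Pituitary hormone transcripts were also high in eGFP.250. A list of 7 pituitary hormone genes, made after the values were seen because Cga came up by the similarity described below, summed to 2037 normalized read counts in this library and to between 0 and 15.6 in the other 7. Gh, growth hormone, had 1849 reads in eGFP.250 and 2 in the other 7 libraries together. Pomc, the precursor of corticotropin, had 1573 reads, against 23 in the other 7 together. Cga, the common subunit of the glycoprotein hormones, had 261 against 1, Prl (prolactin) 166 against 0, and Fshb, Tshb and Lhb had 47, 33 and 10. In eGFP.254 the 7 genes had 4 reads in all. A list of 4 pineal gland genes, also made afterwards, had 30 reads in eGFP.254, of which 21 were of Tph1, a tryptophan hydroxylase, and between 0 and 5 in the other 7. Asmt, the last enzyme of melatonin synthesis, was at 0 in all 8.

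**Figure D3:**
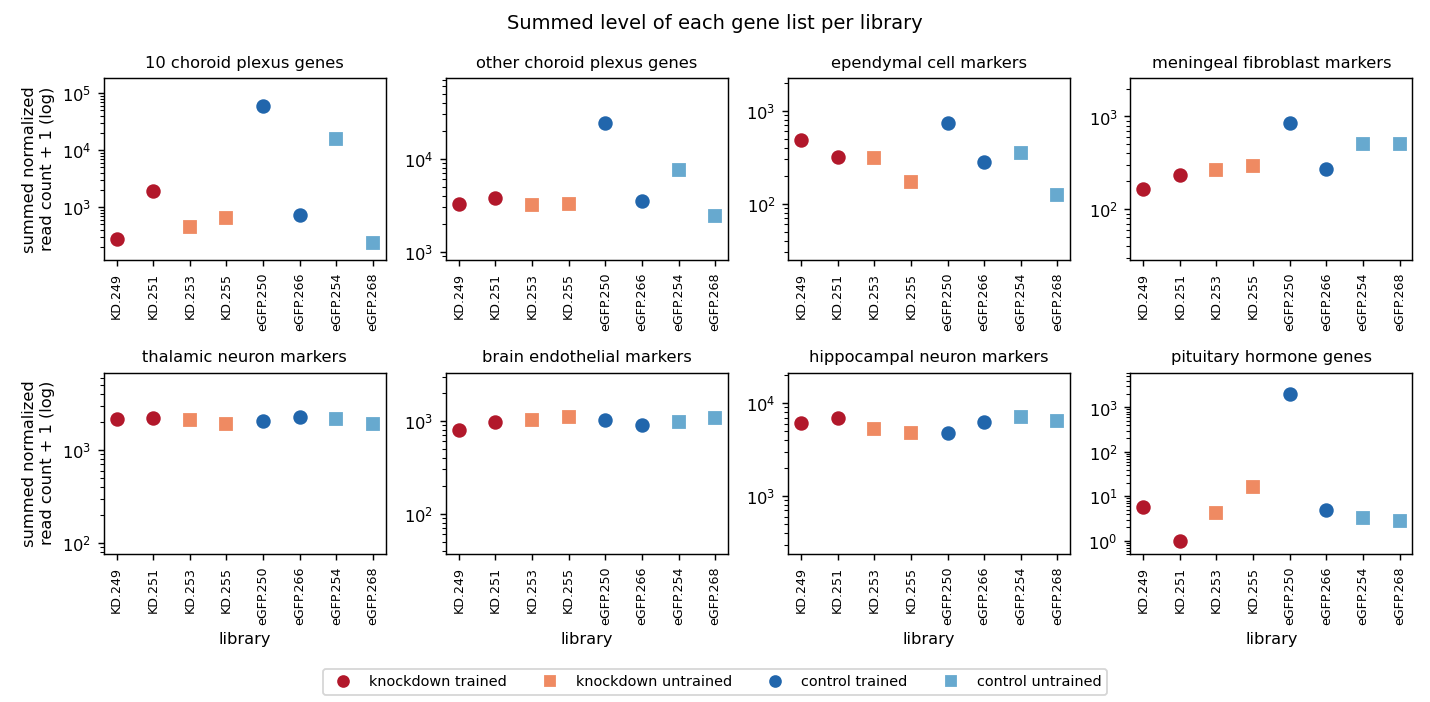
Summed normalized read count + 1 (log axis, with its own range in each panel) of 8 gene lists in each library, knockdown libraries left of control libraries; every point is 1 library. The 10 choroid plexus genes and their 38 companions are highest in eGFP.250 and next in eGFP.254, pituitary hormone genes are high in eGFP.250 (2037), and thalamic and endothelial lists are level.

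Genes outside all lists were ranked by Pearson r of log2(normalized read count + 1) with the mean log2 value of the 10 genes over the 8 libraries. The 10 highest were Pcolce2 (0.96), Pcp4l1, Pdgfa and Abca4 (each 0.95), Eps8l2 and Zfp185 (each 0.94), and Epn3, Zic2, Steap2 and Fhad1 (each 0.93). All points share library depth and size factor, and eGFP.250 and eGFP.254 set most of the spread. Pcolce2 had 16.9 and 14.4 in trained knockdown and 16.5 and 15.6 in untrained knockdown libraries, against 72.9 and 18.2 in trained control and 30.8 and 11.5 in untrained control libraries. Abca4, a retinoid transporter, had 115 in eGFP.250 and 44.8 in eGFP.254 and at most 15.6 elsewhere. Of the 45 tested genes with r over 0.9, 24 were in the choroid plexus lists, which includes all 10 genes that define the mean.

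Over the 7 libraries without eGFP.250 the ranking was different, with 0 of the 10 highest shared. It was headed by Git1 (0.94), a regulator of ARF GTPases, and Cga (0.93), followed by Rara, Acadm, Ntsr2, Zfp692, Cby1, 1110012L19Rik, BC029214 and Hmg20b. Cga rested there on a single read in eGFP.254. Git1 had 3492 in eGFP.254 and between 1858 and 2472 in the other 7, so that its likeness was to eGFP.254 and did not extend to eGFP.250, which held its lowest value. Ntsr2 was also lowest in eGFP.250, at 492. Acadm and 1110012L19Rik were instead high in both libraries, and r for each was 0.905 over the 8 libraries.

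Knockdown and control were set against each other first in trained mice. All 10 genes were lower with the knockdown vector, with a median log2 difference of -2.69 (from -3.67 for Slc4a5 to -1.15 for Folr1). The median was -4.76 with edgeR, -4.61 with DESeq2 and -5.24 with library set (eGFP.266 and eGFP.268 against the rest) as a term. Ttr stood at -3.43 with a standard error of 2.35 and Kl at -1.76 with a standard error of 0.99. The median of all 12681 tested genes was -0.00. The 30 further choroid plexus genes were all lower too, with a median of -1.52. None of the 30 passed limma at an adjusted p under 0.05 (smallest adjusted p = 1.00), and 5 had an unadjusted p under 0.05, against 299 of all tested genes. edgeR and DESeq2 also called 0 of the 30, with 22 and 16 at an unadjusted p under 0.05, against 613 and 407 of all tested genes. Nothing is read from these counts, here or in the comparisons below, since the list was chosen with earlier results known. The genes also rise in the same libraries, and 8 of the 30 were tested only through eGFP.250 and eGFP.254. For knockdown against control in trained mice limma called 0.00789% of all tested genes (1 gene, the chemokine gene Ccl5), edgeR 0.0315% and DESeq2 0.26%. Igf2 was at -2.53 with a standard error of 0.99 and Enpp2 at -1.55 with a standard error of 1.00. With library set as a term, limma called both of these genes (lower, smallest adjusted p = 0.040) and no other of the 30. The second set is eGFP.266 and eGFP.268 alone, so this term takes up the gap between them and the high pair. The knockdown libraries are then set against control values at the level of the high pair, and nothing is read from these calls.

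The difference in trained mice depended on eGFP.250. Without this library, which leaves eGFP.266 alone in its group, the median of the 10 genes was 0.14 (from -0.99 to 1.44). Of the 10, 6 were then higher with the knockdown vector, and the median of the 30 further genes was -0.12. Without the other trained control library, eGFP.266, the medians were -5.59 and -3.19. Of the 100 genes with the largest absolute log2 difference in this comparison, 7 were of the 10 and 10 of the 30, and without eGFP.250 they numbered 0 and 1.

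In untrained mice all 10 genes were lower with the knockdown vector as well, at a median of -1.93 (from -2.86 for Folr1 to -0.22 for Kcnj13). It was -2.91 with edgeR, -2.51 with DESeq2 and -4.40 with library set as a term, under the limit given above for that term. Ttr stood at -1.81. The 30 further genes had a median of -0.61, with 25 of 30 lower, and the median of all tested genes was -0.05. None of the 30 passed limma (smallest adjusted p = 0.816, 0 at an unadjusted p under 0.05), and limma called 0% of all genes, with 571 at an unadjusted p under 0.05, edgeR 0.181% and DESeq2 0.434%. Without eGFP.254, which leaves eGFP.268 alone in its group, the median of the 10 was 0.20 and that of the 30 was 0.14. Of the 10, 6 were then higher with the knockdown vector. The zeros of KD.255 enter this comparison although its floor was 46.7. Without KD.255 the median of the 10 was -1.49.

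Training in control mice went with higher values of all 10 genes in trained than in untrained libraries. The median log2 difference was 1.44 (from 0.80 for Kl to 2.07 for Ttr), and that of the 30 further genes was 1.09, with 30 of 30 higher. None of the 30 passed limma (smallest adjusted p = 1.00, 1 at an unadjusted p under 0.05) or edgeR or DESeq2 (5 and 2 at an unadjusted p under 0.05, against 423 and 232 of all tested genes). Limma and edgeR called 0% of all genes (181 at an unadjusted p under 0.05 in limma) and DESeq2 0.0315%. Each group of this comparison holds 1 of the 2 high libraries. Without eGFP.250 the 10 genes had a median of -1.18, with 0 of 10 higher, and without eGFP.254 they had a median of 3.68. Without both, eGFP.266 alone was set against eGFP.268 alone, and the median was 0.80, with 8 of 10 higher. Of the 100 genes with the largest absolute difference, 8 were of the 10 and 12 of the 30.

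Immediate early genes, the fast response genes that training is known to raise in hippocampal neurons, were read in the same contrast. The 10 genes of this list summed to 4253 and 4702 normalized read counts in trained control libraries, against 2892 and 1568 in untrained control libraries. In knockdown libraries the sums were 5989 and 4512 with training and 4892 and 3997 without it. The untrained knockdown sums thus lay above those of the untrained control libraries, near those of the trained control libraries. Arc, an activity-regulated synaptic gene, had 951 and 1103 in trained control libraries, against 523 and 271 in untrained control libraries. Its log2 difference was 1.44, and 1.55 without eGFP.250, 1.91 without eGFP.254 and 2.02 without both. Egr1 had 1919 and 2126 in trained control libraries, against 1438 and 706 in untrained ones, a log2 difference of 1.00, and 1.08, 1.52 and 1.59 under the same omissions. Nr4a2 had 481 and 546 in trained control libraries, against 340 and 263 in untrained ones. None of the 3 passed limma (adjusted p = 1.00). The direction of Arc and Egr1 was the same in each of these settings, while the median of the 10 choroid plexus genes changed sign without eGFP.250. Without eGFP.250 the trained control group is eGFP.266 alone, and without eGFP.254 the untrained control group is eGFP.268 alone.

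Training in knockdown mice, where neither high library takes part, had a median of 0.43 for the 10 genes (from -0.80 for Kcnj13 to 2.96 for Folr1), with 6 of 10 higher in trained libraries. The 30 further genes had a median of 0.10, with 17 higher and 13 lower, and all tested genes 0.04. The 3 tools called 0% of all genes here, with 568 at an unadjusted p under 0.05 in limma. Both knockdown groups hold 1 shallow library. In KD.255, Folr1 had no read and Kcnj13 had 1 read, both under that library's floor of 46.7. The values of these genes here, and in the difference of the training responses below, thus rest partly on values under the floor. Without KD.251 and KD.255 the median of the 10 was -0.23, on 1 library a group. The difference of the training responses, knockdown minus control, had a median of -1.01 for the 10 (from -2.72 for Kcnj13 to 1.72 for Folr1), and of -0.83 for the 30, with 24 of 30 lower. Limma called 0% of all genes, with 112 at an unadjusted p under 0.05, and edgeR and DESeq2 also called 0. Without eGFP.250 these medians were 1.68 and 0.62. The 5 comparisons share libraries with one another, so their values are not independent.

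**Figure D4:**
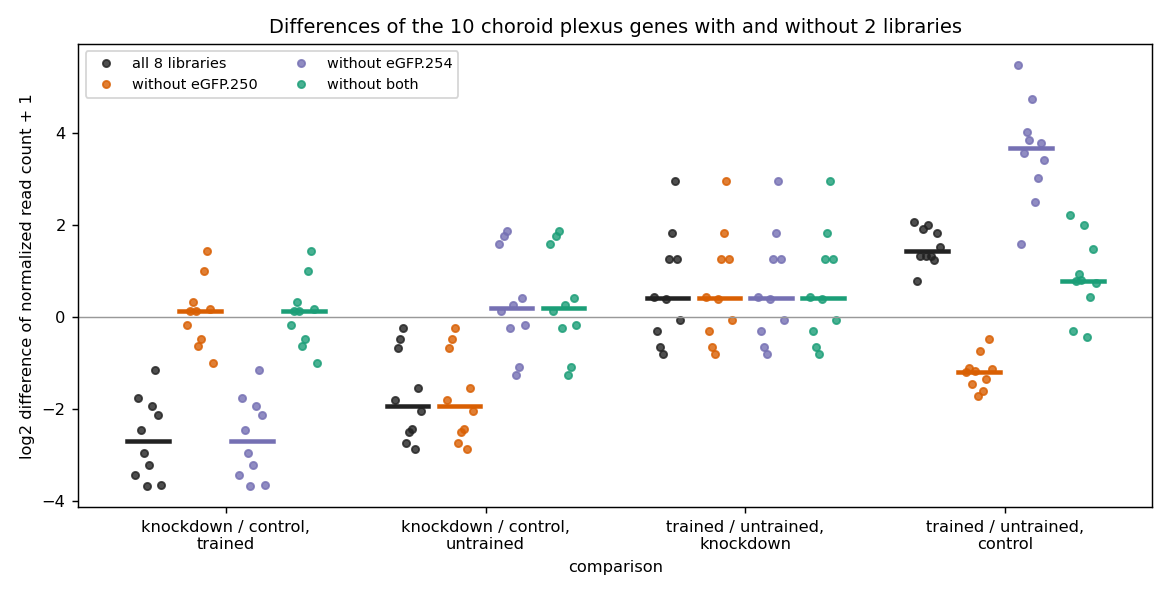
Log2 differences of normalized read count + 1 of the 10 choroid plexus genes in 4 comparisons, knockdown over control and trained over untrained, with all 8 libraries and without eGFP.250, without eGFP.254 and without both; points are genes and bars medians. The knockdown over control difference in trained mice has a median of -2.69 with all libraries and of 0.14 without eGFP.250, which leaves eGFP.266 alone in its group.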

How the data were processed

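RNA was measured in 8 libraries of dorsal hippocampus in 4 groups. Per the labels' protocols, polyadenylated RNA was made into ScriptSeq v2 libraries and sequenced on a NextSeq 500. Per the submitters' processing notes, the tools were bcl2fastq 02.14.01.07, STAR 2.3.0, HTSeq 0.6.1, DESeq and bedtools on mm10. The annotation and strand setting are not stated in the sources used here. What the authors deposited is a table of normalized signal for each gene and library. All values (100%) were whole multiples of 1 read per library at a relative tolerance of 1e-06, so read counts were recovered. Of 24503 entries, 5 were summary entries and stayed out of all sums and tests. The entry for reads in no gene held between 16.4% and 20.3% of a library's reads. That for alignments that were not unique held between 10.6% and 13.8%, and that for reads not aligned between 2.76% and 7.86%.

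Differences were fitted with limma 3.58.1 (intensity trend, R 4.3.3) on log2(value + 1) for 12681 genes whose mean reached 10, with 4 groups sharing 1 spread and Benjamini-Hochberg adjustment over all genes. There were 4 residual degrees of freedom and 5.13 from the prior. The scale understates changes of low genes. edgeR 4.0.16 and DESeq2 1.42.0 on recovered reads, other pseudocounts (0.5 and 5), no filter, each library left out, both shallow libraries left out, library set as a term (eGFP.266 and eGFP.268 against the rest) and the mean log2 value of the 10 genes as a covariate were alternatives. The fits were tested on simulated counts with 1 spread setting for all genes and no outlying library. That test therefore does not cover data with libraries such as eGFP.250. Count intervals are exact, at 95%, and cover counting error only, since reads carried no molecular identifiers.

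The 10 genes and all lists were chosen with earlier results of these data known, and the pituitary and pineal lists after the values were seen. Genes named are the 10, the 12 highest of the further choroid plexus genes, the 3 highest of every other list, the 10 most similar genes over 8 and over 7 libraries, and Acss2; Gh, Pomc and the other pituitary and pineal genes, Ccl5 and Gigyf2 were added after their values were seen. Replicates were further apart than sampling noise (chi-square per degree of freedom from 2.08 to 34.0), and each counted as 1 sample. Nothing says whether libraries came from separate mice, so p-values measure only the spread between libraries, which may be technical. Gene positions and exon lengths are from GENCODE M21 (GRCm38) and promoters from RefSeq GRCm38.p6.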

Additional observations from a re-analysis of the deposited data

Results flagged for a closer look

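Each gene's value in 1 library was compared with the other 3 of an arm of 4 libraries, as the gap to the nearest library divided by the range of the arm. The limit used was Dixon's 95% critical value for 4 libraries, which chance alone passes in about 5% of arms. That rate does not hold for the 10 genes, which were chosen with these values known, so what follows describes where the values lie and is no test. In the 4 trained libraries, eGFP.250 passed it in all 10 genes, at 0.972 for Ttr, 0.987 for Kl, 0.909 for Folr1, 0.957 for Calml4, 0.98 for Clic6, 0.984 for Kcnj13, 0.919 for Otx2, 0.993 for Slc4a5, 0.985 for Aqp1 and 0.983 for Tmem72. The sum of the 10 stood at 0.973, the sum without Ttr at 0.983 and the sum of the further choroid plexus genes at 0.973.

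In the 4 untrained libraries, eGFP.254 passed it for Ttr (0.977), Kl (0.846), Folr1 (0.94), Otx2 (0.839), Slc4a5 (0.948), Aqp1 (0.965), Tmem72 (0.969), the sum of the 10 (0.974) and the sum without Ttr (0.905). In the 4 control libraries, eGFP.250 passed it for Kcnj13 (0.872) and Otx2 (0.899), since eGFP.254 lay nearer to it in the other genes. In the 4 knockdown libraries, KD.251 passed it for Otx2 (0.848) on 17.3 normalized read counts, or 6 reads, a value that cannot be told apart from the 0 reads of KD.255, whose floor is 46.7. The same floor lies above the values of eGFP.254 for Folr1, Otx2 and Aqp1 among the untrained libraries.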

How the results depend on the processing

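Leaving out a single library moved some values and not others, and a median did not change where that library took no part in the comparison. The median log2 difference of the 10 genes ran from -5.59 to 0.14 over these omissions for knockdown against control in trained mice, from -3.76 to 0.20 in untrained mice, from 0.11 to 0.97 for training in knockdown mice, from -1.18 to 4.23 for training in control mice and from -3.73 to 1.68 for the difference of the training responses. That of the 30 further choroid plexus genes ran from -3.19 to -0.12, from -1.66 to 0.14, from -0.02 to 0.35, from -0.52 to 2.78 and from -2.32 to 0.62 in the same order. Counts of genes called ran from 0 to 11, 0 to 1293, 0 to 1242, 0 to 0 and 0 to 710 in that order, and the 3 high counts came without KD.253, which leaves KD.255 alone in its group. Without eGFP.250 and eGFP.254 together, an omission chosen after seeing the data, the medians in trained mice were 0.14 and -0.12. This leaves eGFP.266 and eGFP.268 each alone in its group. The median of the 10 genes for training in control mice was 2.07 with edgeR and 2.03 with DESeq2, and for the difference of the training responses -1.91 and -1.84. For training in knockdown mice it was 0.05 and 0.06, against 0.43. With library set as a term, the further genes were at -2.92 in trained and -1.99 in untrained mice, and 2 genes were called in trained mice, both of that list (Enpp2 and Igf2, lower with the knockdown vector). That term takes up the gap between the high pair and the other control libraries, so nothing is read from these calls. With the mean of the 10 genes as a covariate the further genes were at -0.16 in trained mice and 0 genes were called. Genes called in trained mice numbered 0 with a pseudocount of 0.5, 0 with no filter, 4 with edgeR, 33 with DESeq2 and 79 without both shallow libraries, against 1. In untrained mice they numbered 1 with a pseudocount of 5, 23 with edgeR, 55 with DESeq2 and 67 without both shallow libraries, against 0, and DESeq2 called 4 for training in control mice, against 0. The causes were not tested. The summed level in eGFP.250 was 88.9 times the median of the 8 libraries, 22.4 times without Ttr and 90.8 times as a share of gene reads, and that in eGFP.254 was 23.2 times, and 5.22 times without Ttr. No paired analysis was possible because the columns carry no replicate numbers. Depth limits the low genes in KD.255 and KD.251.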
